A study of Mus musculus with 3 samples.

Results

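Translation initiation and elongation factors, the proteins that bring the ribosome to the start codon and then move it along the mRNA, were followed in mouse skin before and after a dose of cyclophosphamide. The members are all UniGene clusters (groups of transcript sequences held to come from 1 gene) whose symbol begins with Eif or Eef and a number, either through the description in the deposited tables or through an exact match of their tags to reference transcripts. There were 77 such clusters among the 20595 listed in any library, and 60 of them were named by tags that occur in 1 gene only. A further 12 rested on tags shared with pseudogenes or paralogs, 2 on a RefSeq accession and 3 on the description alone. Of the 77, 67 had 15 or more tags summed over the libraries and entered the tests, among 13812 clusters tested in all. The 10 that did not enter had between 2 and 13 tags each. The description also brought in 5 clusters of the Argonautes, small RNA binding proteins that once carried Eif2c symbols and are not translation factors. They are kept apart below, and 72 clusters remain without them.

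The skin came from male C57BL/6 mice, 2 months old, whose hair had been removed 9 days before the injection to start hair growth. The 3 groups were untreated skin (day 0) and skin taken at day 1 and day 2 after 150 mg/kg cyclophosphamide, an alkylating drug that damages dividing cells, given into the peritoneum. The sample labels write this dose per km, and the design text per kg. Each group is 1 library, and the sources used here do not state how many mice it holds. The treated skins were 1 and 2 days further into hair growth, which cannot be told apart from the drug.

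In mammals an initiation factor set (eIF1, eIF1A, eIF3, eIF5) sits on the small ribosomal subunit, eIF2 brings the initiator tRNA as a GTP complex, and eIF2B recharges eIF2 after each round. The eIF4F complex (the cap-binding eIF4E, the scaffold eIF4G and the helicase eIF4A) recruits the mRNA, and 4E-binding proteins hold eIF4E back when mTORC1 is inactive. Phosphorylation of the eIF2 alpha subunit by stress-activated kinases lowers initiation. In elongation eEF1A delivers aminoacyl-tRNAs, the eEF1B subunits recharge it, and eEF2 translocates the ribosome.

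Each mRNA was counted by tags of 21 bases, the cut site of the enzyme NlaIII and the 17 bases after it. A level is given as CPM, tags per 1000000 after scaling of library sizes by edgeR's TMM, and a ratio as log2 of the scaled tags. Tags are counted per transcript end and not per base, so no division by transcript length was made. A gene can give tags at several cut sites, numbered from 1 at the 3′ end. The sequences that carry most of the findings are given here, 5′ to 3′, as read in the libraries. Capitals mark the cut site and, in 2 of them, the run of A at the end.
Eif3i, site 1: CATGgatgtgaccacaacctc
Eif3b, site 1: CATGgggtttccagagccttc
Eif3h, site 1: CATGgcccaggctcttcaaga
Eif3j1, site 4: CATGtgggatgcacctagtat
Eif3j1, site 1: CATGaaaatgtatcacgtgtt
Eif3a, site 7: CATGgatgatgataggggtcc
Eif4g1, site 1: CATGaattcaattAAAAAAAA
Eif4g1, site 2: CATGgacacgtggatggccca
Eef2, site 1: CATGtgctcgcAAAAAAAAAA
Eif2s3y, site 1: CATGgtgaacatagggtcctt
Eif2b1, site 1: CATGgttagaacccaaacagc
Eif2b2, site 1: CATGactactttgctgggttg
Eif2b5, site 1: CATGtgctgctcgtcctgact
Eif1ad, coding end: CATGagagtgaggaggagagt
Eif1ad, 3′ UTR: CATGgaaaaataaactagatg

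Depth was 2731787 tags in the day 0 table, 2859653 in the day 1 table and 2636804 in the day 2 table. Markers of the epidermis were present in every library, with summed levels of 8 epidermal marker clusters at 12350, 16620 and 15676 CPM. Other cell types moved with time: 14 hair follicle keratin clusters summed to 43542, 67383 and 29551 CPM and 20 skeletal muscle marker clusters to 13657, 21219 and 27487 CPM. The summed level was 279, 299.9 and 632 CPM over 9 macrophage marker clusters, and 2999, 1912 and 3350 CPM over 8 fibroblast marker clusters. Over 3 erythroid clusters it was 53.0, 69.4 and 7.72 CPM, and Hba-a2 was not listed at day 2. The part of these shifts in the levels of the translation factors was not tested.

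A ratio was called where the adjusted p was 0.001 or less and the change at least 2-fold, by a two-sided exact conditional binomial test of the tags of 2 libraries, with p-values adjusted by Benjamini-Hochberg across the 13812 clusters. The test compares the 2 libraries, not the conditions, because there are no replicates. Below, "rose" and "fell" are used where the adjusted p was 0.001 or less, and "called" where the change was also at least 2-fold. Intervals are 95% exact intervals of counting error alone. In whole skin, fewer cells of a type and less RNA per cell cannot be told apart.

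Most translation factors moved little, as did most clusters tested. The quartiles of the log2 ratio at day 1 over day 0 were -0.36 and 0.32 in the members. Over all clusters tested they were -0.43 and 0.37. Together the 77 clusters took 29658, 29664 and 26312 tags, which is 1.09%, 1.04% and 0.998% of the tables. Between day 0 and day 1, 2 of the 67 tested were called higher and 2 lower, against 2.95% of all clusters called in either direction (1.53% higher and 1.43% lower). Between day 0 and day 2, 1 was called higher and 3 lower, against 6.53% of all clusters (3.45% higher and 3.08% lower). Between day 1 and day 2, 1 was called higher and 0 lower, against 2.95% of all clusters (1.83% higher and 1.11% lower). The median log2 ratio of the members was 0.03, -0.04 and -0.13 in these 3 comparisons, beside -0.02, 0.01 and -0.01 over all clusters tested. The first 2 comparisons share the day 0 library. Variation between animals was not measured. With a coefficient of variation of 0.2 assumed for it (edgeR's exact test, adjusted p of 0.05), 0 members were called in the 3 comparisons, where 0.21%, 1.77% and 0.652% of all clusters were. With 0.4 assumed, 0 members were called, where 0, 0.0434% and 0.0145% of all clusters were.

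At any size of change, 10 members rose and 8 fell from day 0 to day 1, where 5.96% of all clusters rose and 5.23% fell (11.2% in either direction). From day 0 to day 2, 9 rose and 12 fell, where 7.37% rose and 7.91% fell (15.3% in either direction). From day 1 to day 2, 7 rose and 9 fell, where 4.63% rose and 5.28% fell (9.9% in either direction). Such small changes pass only where tags are many. Among clusters with a mean of 100 CPM or more, 9 of 26 members rose and 4 fell from day 0 to day 1, beside 491 and 294 of 1660 clusters. From day 0 to day 2, 7 of these 26 members rose and 8 fell, beside 409 and 458 of the 1660. From day 1 to day 2, 5 of the 26 rose and 9 fell, beside 246 and 471 of the 1660. Abundant clusters in general thus passed far more often than all clusters tested.

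**Figure D1:**
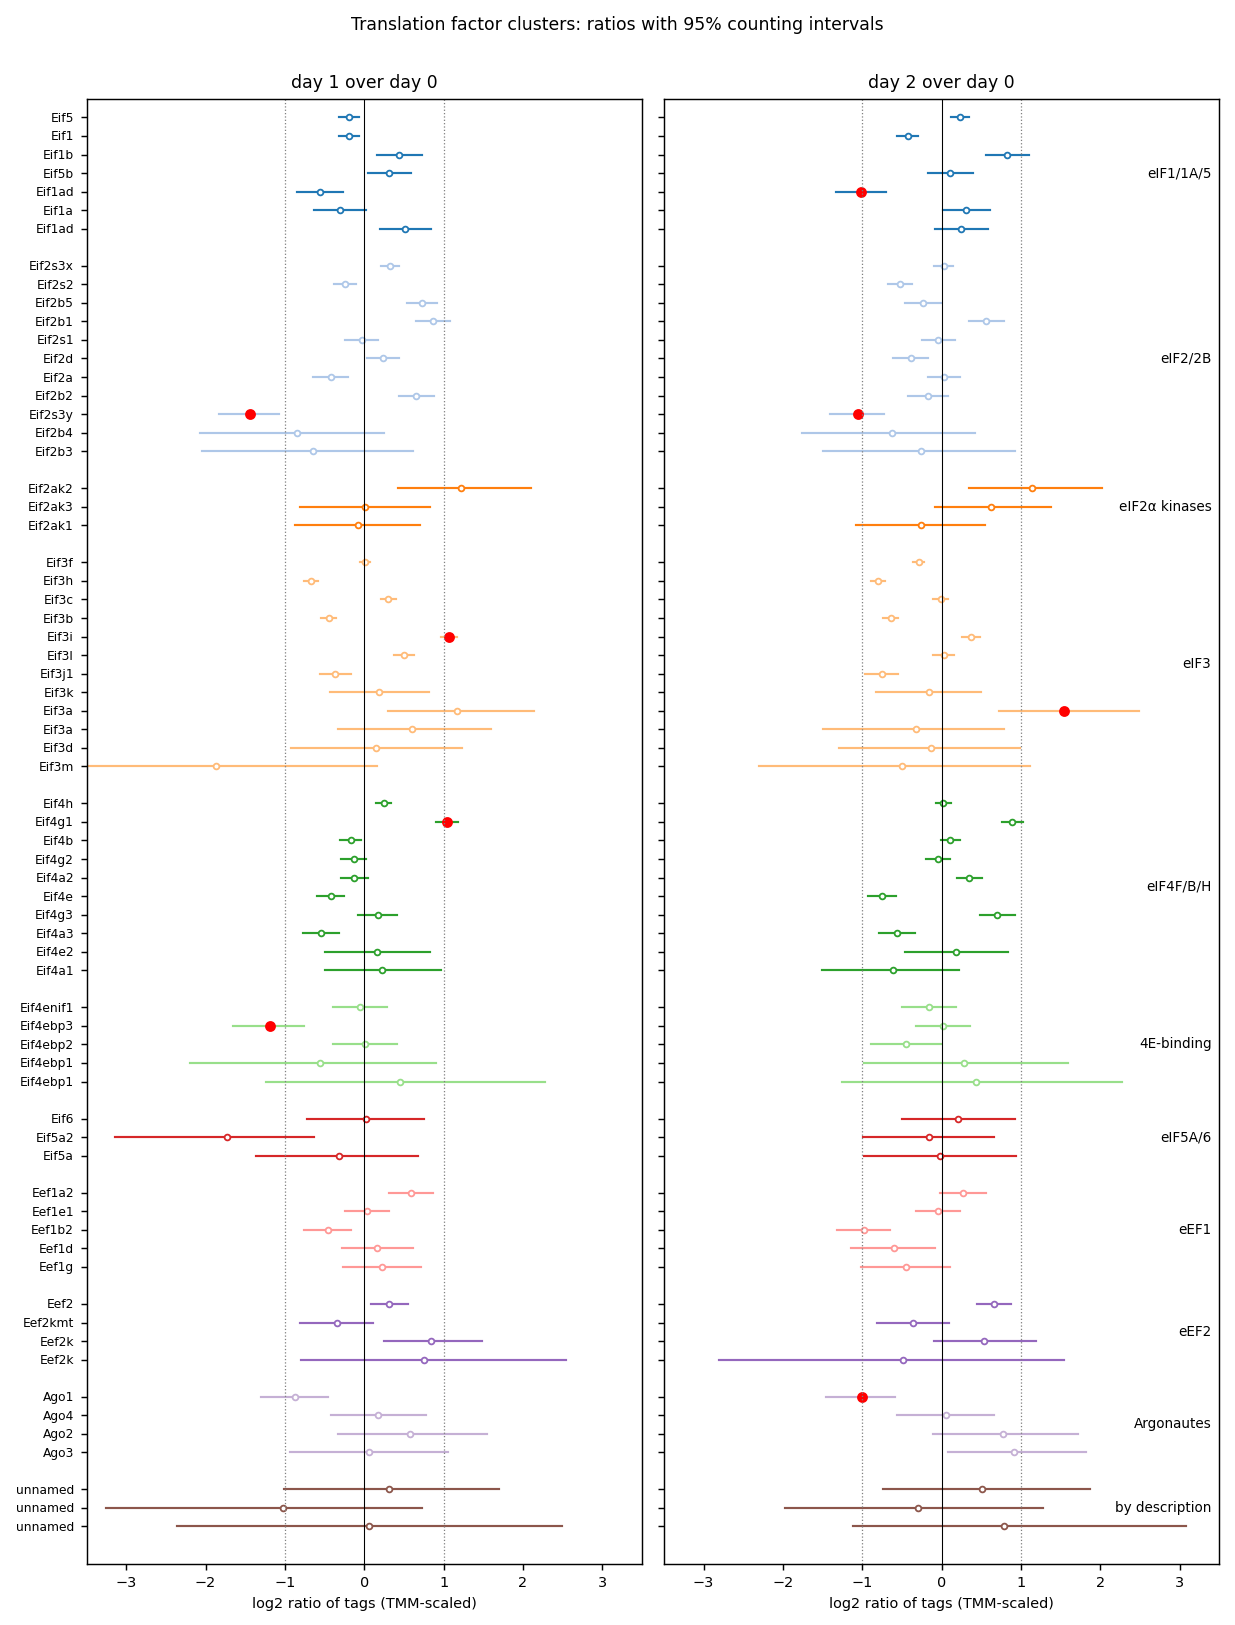
Log2 ratio of scaled tags for each of the 67 tested clusters, by functional group, at day 1 over day 0 (left) and day 2 over day 0 (right). Points are ratios, lines are 95% counting intervals (1 of them runs past the left edge), red points are called and dotted lines mark a 2-fold change; most points lie within 2-fold on both days.

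The eIF3 complex, the large scaffold that binds the small subunit, took the most tags. Its 12 tested clusters summed to 4830, 4963 and 3909 CPM. From day 0 to day 1, 3 clusters rose and 2 fell, and from day 0 to day 2, 2 rose and 4 fell. From day 1 to day 2 none rose and 4 fell. The median log2 ratio was 0.17 at day 1 and -0.22 at day 2 against day 0. For the group counts here and below, 5.96% of all clusters tested rose and 5.23% fell from day 0 to day 1. From day 0 to day 2, 7.37% rose and 7.91% fell, and from day 1 to day 2, 4.63% rose and 5.28% fell. At a mean of 100 CPM or more, 491 of 1660 clusters rose and 294 fell at day 1. At day 2 these were 409 and 458. Against day 0 the subunits thus moved in both directions, as abundant clusters in general did.

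Eif3i, a WD-repeat subunit, had 1216, 2435 and 1517 tags (432, 904 and 558 CPM). The day 1 library was the high one. The log2 ratio was 1.06 at day 1 (0.96 to 1.16, adjusted p 1.4e-101) and 0.37 at day 2 (0.26 to 0.48, adjusted p 5.6e-10), and it fell by 0.70 between them. Its leading tag, shown above, lies in coding exon 9 of 11 at chr4:129593024-129593044, minus strand, of GRCm38. That tag had 1183, 2385 and 1486 copies and occurs in no other gene of the reference. The other 14 tags of Eif3i, at 33, 50 and 31 copies in sum, gave a log2 ratio of 0.65 at day 1 (-0.00 to 1.34).

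Eif3h and Eif3b went the other way. Eif3h, a subunit with an MPN domain, had 2774, 1672 and 1541 tags, and fell by 0.67 on the log2 scale at day 1 (adjusted p 5.7e-50) and by 0.80 at day 2 (adjusted p 1.3e-68). Its leading tag (chr15:51786741-51786761, last exon, coding) is shared with the predicted gene AC122253.2, so the copies cannot be separated. Eif3b, the RNA-binding core subunit, had 2444, 1714 and 1514 tags and fell by 0.45 at day 1 (adjusted p 1.3e-21) and by 0.64 at day 2 (adjusted p 2.2e-41). Its leading tag lies in the 3′ UTR at chr5:140443140-140443160. Its other 14 tags, at 62, 70 and 39 copies in sum, gave a log2 ratio of 0.24 at day 1 (-0.28 to 0.75) and -0.61 at day 2 (-1.24 to -0.02). In the summed tags of both genes the day 0 library was the high one and both treated libraries were below it.

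Eif3f, the member with the most tags, had 3861, 3729 and 3059 of them. It stayed level at day 1 (log2 ratio 0.01, -0.05 to 0.08) and fell by 0.29 at day 2 (adjusted p 5e-15). Eif3c, a core subunit, had 1804, 2132 and 1729 tags, 0.30 higher at day 1 (adjusted p 1.3e-09) and at -0.01 at day 2. Eif3l, a PCI-domain subunit, followed the same course with 873, 1180 and 858 tags (0.50 at day 1, adjusted p 3.4e-13, and 0.02 at day 2). Eif3c, Eif3l and Eif3i were thus highest at day 1, while Eif3h, Eif3b and Eif3j1 were highest at day 0. Eif3l and Eif3j1 are named beyond the most abundant because they complete the subunits above 100 CPM.

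**Figure D2:**
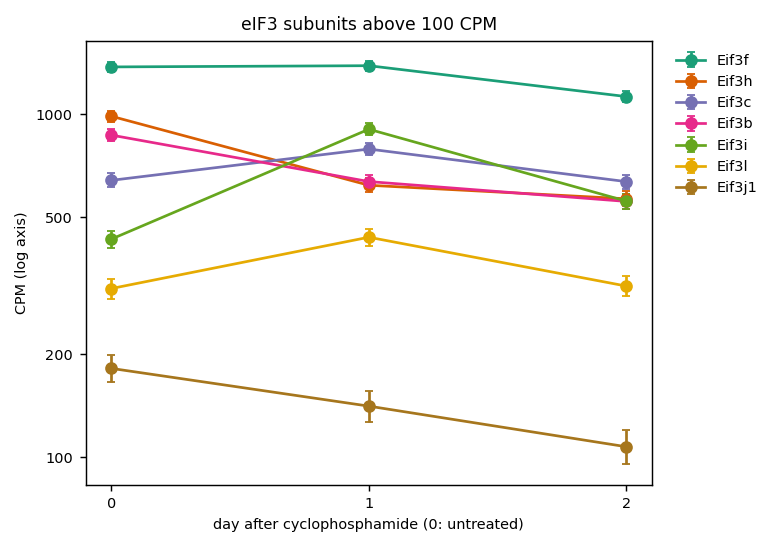
Level (CPM, log axis) of the 7 eIF3 clusters with a mean above 100 CPM, against day. Bars are exact 95% Poisson intervals of the count in 1 library a day; Eif3i, Eif3c and Eif3l peak at day 1, and Eif3h, Eif3b and Eif3j1 are highest at day 0.

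Eif3j1, a loosely bound subunit whose tags also occur in its copy Eif3j2, had 511, 380 and 292 tags and fell by 0.76 at day 2 (adjusted p 7.8e-12). The fall was at 1 of its 2 main cut sites. The tag at site 4 (chr2:122052518-122052538) had 353, 218 and 131 copies, a log2 ratio of -1.38 at day 2 (-1.68 to -1.09). The tag at site 1 (chr2:122053569-122053589) had 140, 151 and 141 copies, a ratio of 0.06 (-0.29 to 0.41). Both sites lie in the annotated 3′ UTR. They were chosen after their values were seen, and the difference between them was not tested.

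Eif3a, the largest subunit, was split over a pair of clusters with few tags. The first had 16, 35 and 46 tags and was called higher at day 2 (log2 ratio 1.54, 0.72 to 2.49, adjusted p 0.00069). Its leading tag lies in coding exon 19 of 22 at chr19:60766507-60766527 and had 9, 28 and 30 copies. The second cluster had 17, 25 and 13 tags and a ratio of -0.33 at day 2 (-1.50 to 0.79). Its leading tag, with 15, 13 and 9 copies, lies in a non-coding transcript annotated to the gene, at chr19:60788974-60788994. Summed over both clusters, and so over coding and non-coding transcripts, the gene had 33, 60 and 59 tags. The ratios were then 0.91 (0.29 to 1.58) and 0.88 (0.25 to 1.55), and the gene was not called. The remaining subunits were measured with few tags: Eif3k had 44, 48 and 38, Eif3d 16, 17 and 14, and Eif3m 9, 2 and 6. No difference could be detected at that depth.

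Of the 11 tested clusters of eIF2, eIF2B and 2 related factors, 4 rose and 1 fell from day 0 to day 1, and 1 rose and 2 fell from day 0 to day 2. eIF2 has 3 subunits. Eif2s1 encodes the alpha subunit, which the stress kinases phosphorylate, and was level at 402, 377 and 377 tags (log2 ratios -0.03 and -0.04). Eif2s2, the beta subunit, had 919, 745 and 617 tags and fell by 0.53 at day 2 (adjusted p 3.5e-11), on tags shared with the pseudogene Gm9892. The gamma subunit, which binds GTP and the initiator tRNA, has an X-linked and a Y-linked gene in the mouse.

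The X-linked and Y-linked copies differed in course. Eif2s3x had 1208, 1449 and 1189 tags, rose by 0.32 on the log2 scale at day 1 (adjusted p 1.5e-07) and was at 0.03 at day 2. The rise was in its site 1 tag, with 1030, 1332 and 1072 copies. Its other tags in sum had 178, 117 and 117 copies, a ratio of -0.54 at day 1 (-0.89 to -0.20). Eif2s3y had 231, 81 and 107 tags (82.1, 30.1 and 39.4 CPM). It fell by 1.44 at day 1 (-1.83 to -1.08, adjusted p 6.7e-15) and by 1.06 at day 2 (-1.41 to -0.72, adjusted p 1.6e-09), both called. Its leading tag occurs in no other reference gene and lies in coding exon 11 of 12 at chrY:1023331-1023351. It had 222, 77 and 96 copies.

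All mice were male per the labels, so other Y-linked genes were read beside it. Ddx3y, a Y-linked RNA helicase, had 258, 155 and 223 tags, with log2 ratios of -0.67 at day 1 (adjusted p 4.3e-05) and -0.16 at day 2. The Y-linked histone demethylase Kdm5d had 43, 37 and 50 tags in 1 cluster and 78, 111 and 111 in the other. Neither Kdm5d cluster passed an adjusted p of 0.001. These genes were chosen after the values of Eif2s3y were seen.

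Of the 5 subunits of eIF2B, the exchange factor, the 3 with the most tags rose at day 1. Eif2b1, the alpha subunit, had 284, 496 and 406 tags, a log2 ratio of 0.87 at day 1 (0.65 to 1.08, adjusted p 8.2e-15) and 0.56 at day 2 (0.34 to 0.79, adjusted p 4.3e-06). Eif2b5, the catalytic epsilon subunit, had 371, 588 and 305 tags, 0.73 at day 1 (0.54 to 0.92, adjusted p 5.2e-13) and -0.23 at day 2 (-0.46 to -0.01). Eif2b2, the beta subunit, had 279, 421 and 240 tags, 0.65 at day 1 (0.43 to 0.88, adjusted p 6.4e-08) and -0.17 at day 2. In these 3 genes the day 1 library was the highest, and in Eif2b2 and Eif2b5 the day 2 library was the lowest. Eif2b5 fell by 0.96 and Eif2b2 by 0.82 from day 1 to day 2 (adjusted p 2.9e-20 and 2.7e-11). None of the 3 reached 2-fold.

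Eif2b3 and Eif2b4, the gamma and delta subunits, had 15, 9 and 12 and 21, 11 and 13 tags, with intervals that span 0 on both days. The eIF2B subunits are named beyond the most abundant because they complete the complex. Eif2a, which can bring an initiator tRNA without GTP, had 404, 289 and 398 tags and rose by 0.45 from day 1 to day 2 (adjusted p 0.00063). Eif2d, a factor of reinitiation, had 388, 437 and 286 tags and fell by 0.62 in that comparison (adjusted p 2e-07).

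None of the eIF2 alpha kinases passed the test. Eif2ak2 encodes PKR, the kinase activated by double-stranded RNA and induced by interferon. It had 19, 43 and 41 tags, with log2 ratios of 1.22 at day 1 (0.43 to 2.10, adjusted p 0.0085) and 1.14 at day 2 (0.34 to 2.03, adjusted p 0.017). Eif2ak3, the kinase PERK of the endoplasmic reticulum, had 28, 27 and 42 tags, and Eif2ak1, the haem-regulated kinase, 31, 28 and 25 in its tested cluster. Eif2ak4 was not analysed here.

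Among the factors of scanning and start codon choice, 7 clusters were tested, of which 1 fell from day 0 to day 1, and 2 rose and 2 fell from day 0 to day 2. Eif1, which keeps the ribosome from starting at wrong codons, had 1048, 879 and 752 tags and fell by 0.43 at day 2 (adjusted p 6.5e-09). Its close paralog Eif1b had 183, 238 and 314 tags and rose by 0.83 at day 2 (0.56 to 1.10, adjusted p 6e-09). The rise of Eif1b was in its site 1 tag, with 160, 225 and 302 copies. Its other tags in sum had 23, 13 and 12 copies, a ratio of -0.86 at day 2 (-2.03 to 0.18). In summed tags, Eif1 thus went down and Eif1b up over the same libraries. Eif5, the GTPase activator of eIF2, had 1119, 938 and 1268 tags and rose by 0.23 at day 2 (adjusted p 0.00073). Eif5b, which joins the ribosomal subunits, had 207, 247 and 216 tags and did not pass. Eif1a had 177, 137 and 212 tags and rose by 0.61 from day 1 to day 2 (adjusted p 0.0009). Its site 1 tag had 110, 85 and 173 copies, and its other tags in sum had 67, 52 and 39, a ratio of -0.42 in that comparison (-1.07 to 0.20).

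Eif1ad, a nuclear protein with an eIF1A-like domain, was split over a pair of clusters whose leading tags both lie in the last exon. One cluster, with 257, 167 and 123 tags, was called lower at day 2 (log2 ratio -1.01, -1.34 to -0.70, adjusted p 8.7e-10). Its leading tag lies in the coding part of the last exon at chr19:5370029-5370049, 1477 bases before the end of the annotated transcript, with 257, 161 and 112 copies. The other cluster, with 144, 197 and 165 tags, did not pass, with ratios of 0.51 at day 1 (0.20 to 0.83) and 0.24 at day 2 (-0.09 to 0.58). Its leading tag, 32 bases before the transcript end at chr19:5371474-5371494, had 127, 184 and 154 copies. Summed, the gene had 401, 364 and 288 tags and a ratio of -0.43 at day 2 (-0.65 to -0.21), and was not called.

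**Figure D3:**
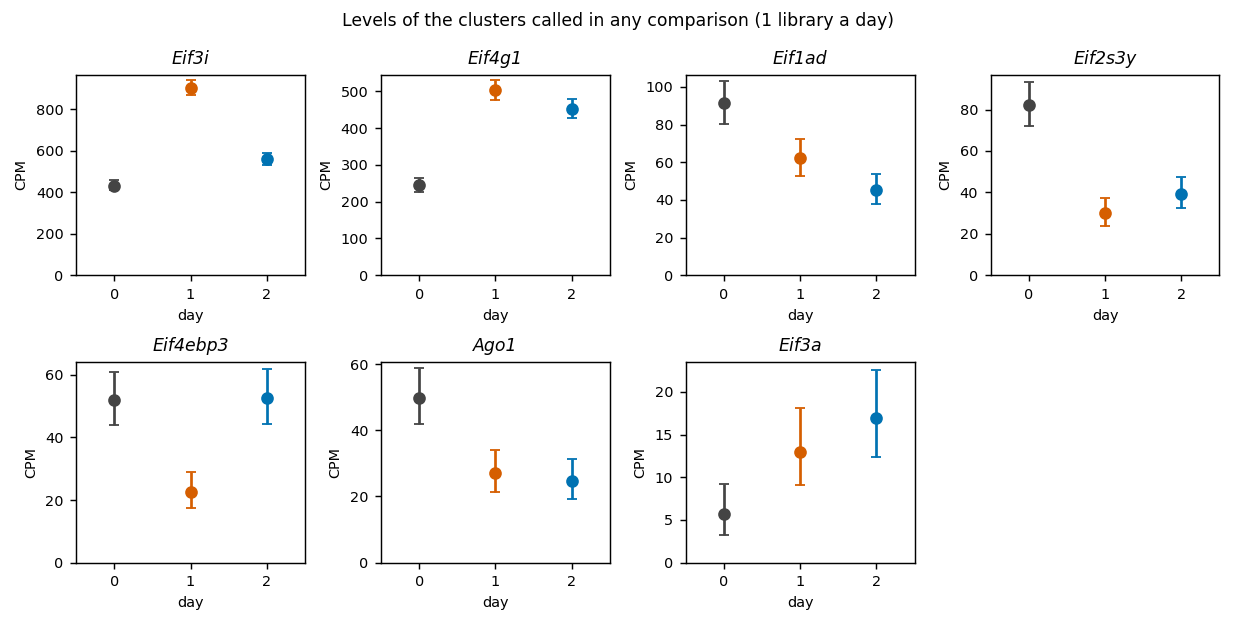
Level (CPM) of the 7 clusters called in any comparison, against day, 1 library a day, with exact 95% Poisson intervals. Eif3i and Eif4g1 are above day 0 on both treated days, Eif2s3y, Eif1ad and Ago1 are below it, Eif4ebp3 is low at day 1 only, and Eif3a climbs from few tags.

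Of the 10 clusters of the eIF4 group, which bind the cap and unwind the leader, 2 rose and 2 fell from day 0 to day 1, and 3 rose and 2 fell from day 0 to day 2. Eif4e, the cap-binding protein, had 696, 497 and 400 tags. It fell by 0.42 at day 1 (-0.59 to -0.26, adjusted p 7.6e-06) and by 0.75 at day 2 (-0.93 to -0.57, adjusted p 1.2e-15). Most of its tags (85.3%) came from site 8, with 614, 423 and 322 copies, and the other sites in sum had 82, 74 and 78 copies, a ratio of -0.02 at day 2 (-0.49 to 0.44).

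The 3 scaffold proteins of the eIF4G family took different courses. Eif4g2, a scaffold without the eIF4E site, was level in sum at 745, 650 and 697 tags. Its leading tag, at site 17, had a log2 ratio of -0.23 at day 1. Its other tags in sum had 64, 93 and 73 copies, a ratio of 0.60 (0.13 to 1.08). Eif4g3 had 272, 293 and 428 tags and rose by 0.70 at day 2 (0.48 to 0.93, adjusted p 3.8e-09). Eif4g1, the main scaffold, had 687, 1354 and 1231 tags (244, 503 and 453 CPM). It was called higher at day 1 (log2 ratio 1.04, 0.91 to 1.18, adjusted p 1.7e-54) and rose by 0.89 at day 2 (0.75 to 1.03, adjusted p 4.1e-38).

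The rise of Eif4g1 rested on 1 tag, and that tag holds the start of the poly(A) tail. It consists of the last 13 bases of the annotated transcript (chr16:20692869-20692881, exon 32 of 32) followed by A, and it had 618, 1265 and 1153 copies. Tags of Eif4g1 that end in 8 or more A made up 89.96%, 93.6% and 93.8% of its tags. The next tag, at site 2 (chr16:20692459-20692479), had 48, 49 and 46 copies, a log2 ratio of 0.09 at day 1 (-0.51 to 0.70). Without tags that end in 8 or more A, the ratio of the gene at day 1 was 0.39, and it was not called. Across the series, 387 such tags with 15 or more copies had a median log2 ratio of 0.52 at day 1 and 1.01 at day 2, against 0.01 and 0.01 over 22011 other tags. Their copies summed to 44035, 74769 and 86678. The leading Eif4g1 tag, at 1.09 and 0.95, was above that median at day 1 and near it at day 2.

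**Figure D4:**
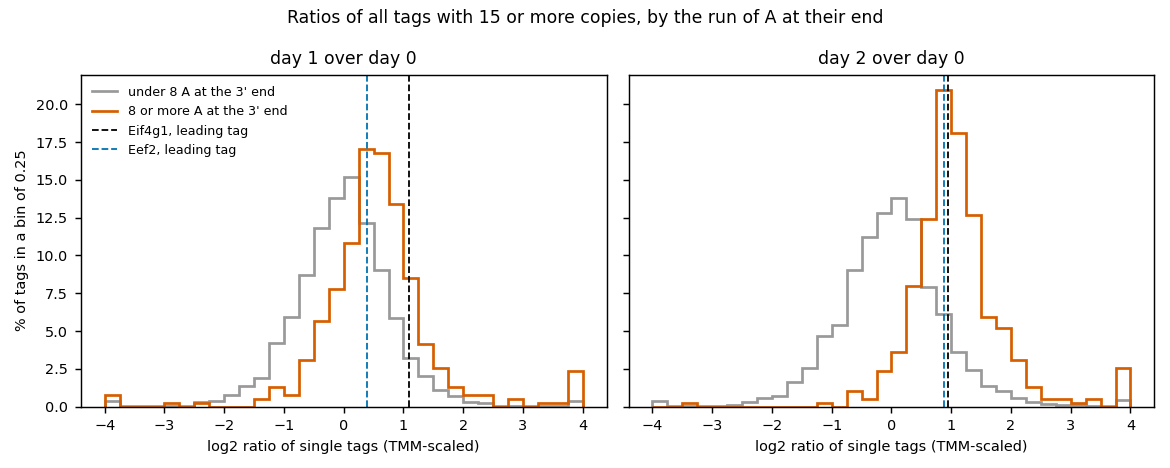
Share of tags (%) by log2 ratio in bins of 0.25, for tags that end in 8 or more A (orange) and other tags (grey), at day 1 and day 2 over day 0; values beyond the axis are in the outermost bins. Dashed lines mark the leading tags of Eif4g1 and Eef2; the orange distribution has a median of 0.52 at day 1 and 1.01 at day 2, the grey one 0.01 on both days.

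The eIF4A helicases also diverged. Eif4a2 had 606, 531 and 744 tags and rose by 0.34 at day 2 (adjusted p 0.00011). Eif4a3, a helicase of the exon junction complex, had 415, 272 and 272 tags and fell by 0.55 and 0.56 on the 2 days (adjusted p 1.3e-05 and 5.8e-06). Eif4a1 had 32, 36 and 20 tags in its tested cluster and did not pass. Of the helicase cofactors, Eif4h had 1756, 1993 and 1721 tags and rose by 0.24 at day 1 (adjusted p 3.4e-06).

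Eif4b, the other cofactor, had 1083, 921 and 1128 tags and did not pass against day 0. Its cut sites differed. Site 1 had 793, 685 and 953 copies, a log2 ratio of 0.31 at day 2 (0.18 to 0.45), whereas site 3 had 116, 55 and 53 copies (-1.07, -1.58 to -0.60) and the coding site 7 had 158, 167 and 103 copies (-0.57, -0.94 to -0.20). Eif5 showed a smaller split: site 3 had 683, 464 and 700 copies, lowest at day 1, and site 6 had 375, 420 and 496 copies. These sites were chosen after their values were seen, and the differences between sites were not tested.

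**Figure D5:**
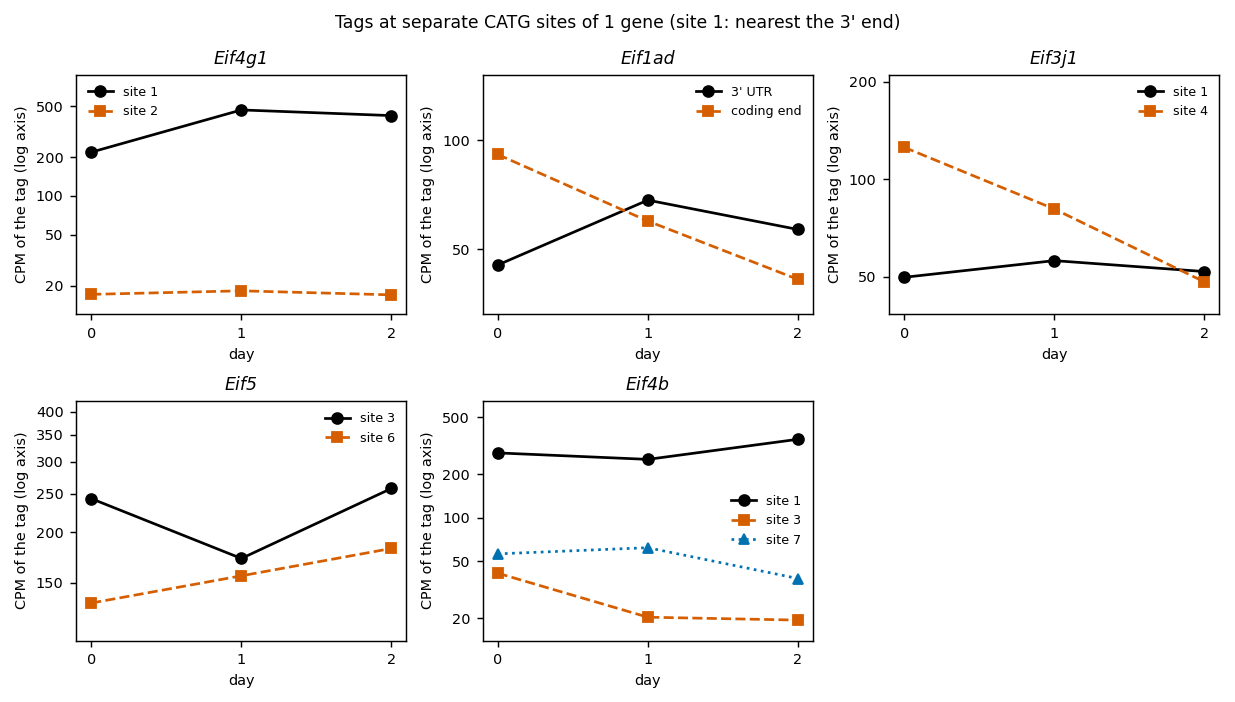
Level (CPM, log axis) of single tags at separate cut sites of 5 genes against day, 1 library a day; site 1 is nearest the 3′ end, and the Eif1ad tags come from 2 clusters. In Eif3j1 and Eif1ad the upstream tag falls while the downstream tag does not, and in Eif4g1 the site 1 tag climbs while the other does not.

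Among the eIF4E-binding proteins, which compete with eIF4G for eIF4E, Eif4ebp3 was called. It had 146, 61 and 143 tags (51.9, 22.6 and 52.6 CPM), so the day 1 library was low and the day 2 library was back at the level of day 0. It fell by 1.19 at day 1 (-1.65 to -0.76, adjusted p 3.3e-07), stood at 0.02 at day 2 and rose by 1.21 from day 1 to day 2 (0.77 to 1.67, adjusted p 2.1e-07). All of its copies were of 1 tag, which is shared with the locus AC115631.1, so the source of the tag cannot be separated. Eif4ebp2 had 106, 102 and 75 tags, and Eif4ebp1 had 11, 7 and 13 in 1 cluster and 6, 8 and 8 in the other. Eif4enif1, which carries eIF4E into the nucleus, was level at 157, 145 and 136 tags. None of these 3 passed. Eif4e2, a second cap-binding protein, had 40, 43 and 44 tags and did not pass either.

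The factors eIF5A, which helps ribosomes past difficult peptide bonds, and eIF6, which keeps the subunits apart, had few tags and none passed. Eif5a had 21, 16 and 20 tags, Eif6 34, 33 and 38, and Eif5a2 29, 8 and 25. The Eif5a2 ratio at day 1 was -1.74 (-3.14 to -0.63, adjusted p 0.0056).

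Of the 5 tested clusters with Eef1 symbols, 1 rose from day 0 to day 1 and 1 fell from day 0 to day 2. Eef1b2, an exchange subunit for eEF1A, had 239, 166 and 117 tags and fell by 0.98 at day 2 (-1.31 to -0.66, adjusted p 9.4e-09), just short of 2-fold. Its leading tag, with 139, 72 and 55 copies, is shared with the pseudogene Gm43712 and had a log2 ratio of -1.28 at day 2. The site 5 tag, which occurs in no other reference gene, had 96, 94 and 60 copies. Its ratio was 0.03 at day 1 (-0.39 to 0.46) and -0.63 at day 2 (-1.12 to -0.15). Eef1d and Eef1g were lower by less at day 2 and did not pass: Eef1d had 82, 88 and 52 tags and Eef1g 68, 76 and 48. At day 1 their log2 ratios were 0.16 and 0.22. The leading Eef1d tag had a ratio of -1.85 at day 2, and its other tags in sum -0.08 (-0.71 to 0.55). Both tags of Eef1g are shared with other reference genes. Eef1e1, a part of the multi-synthetase complex, was level at 221, 216 and 207 tags. Eef1a1, the form found in most tissues, was not analysed here.

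Eef1a2 is the form of eEF1A of skeletal muscle, heart and neurons. It had 181, 260 and 211 tags and rose by 0.58 at day 1 (0.31 to 0.87, adjusted p 0.00027), with 0.27 at day 2 (-0.02 to 0.56). Beside it, 5 of the 20 skeletal muscle marker clusters were called higher at day 1 and 9 at day 2, and 0 lower. Over all clusters tested, 1.53% and 3.45% were called higher on these days, and 1.43% and 3.08% lower. The median log2 ratio of the marker clusters was 0.69 and 1.00. Of the 20 marker clusters, 16 were highest at day 2 and 4 at day 1, as Eef1a2 was. Those 4 were Tnnt3 (4317, 8613 and 8126 tags), Mylk2 (168, 273 and 102), Myh2 (89, 175 and 135) and Myh4 (20, 73 and 54). The most abundant of the 16 were Acta1 (13137, 16236 and 25065), Mylpf (3840, 5817 and 9503) and Atp2a1 (3887, 5874 and 6245). The part of muscle in the Eef1a2 ratio was not tested.

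Eef2, the translocase, had 294, 351 and 448 tags, and rose by 0.66 at day 2 (0.44 to 0.87, adjusted p 1.5e-08). As in Eif4g1, the rise rested on a tag that ends in a run of A. That tag made up 76.2%, 80.3% and 88.8% of the tags of Eef2, had 224, 282 and 398 copies and matched no reference transcript exactly. The other tags of Eef2 summed to 70, 69 and 50 copies, a log2 ratio of -0.43 at day 2 (-0.99 to 0.11). Eef2k, the calcium-dependent kinase that inhibits eEF2, had 37, 64 and 52 tags in 1 cluster and 6, 10 and 4 in the other. The larger cluster had a ratio of 0.84 at day 1 (0.25 to 1.48, adjusted p 0.02) and did not pass. Eef2kmt, which methylates eEF2, had 97, 73 and 73 tags and did not pass.

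Of the Argonautes, Ago1 was called lower at day 2. It had 140, 73 and 67 tags, with log2 ratios of -0.87 at day 1 (-1.31 to -0.46, adjusted p 0.0002) and -1.01 at day 2 (-1.46 to -0.58, adjusted p 1.3e-05). Both treated libraries were below day 0. Ago4 had 47, 51 and 47 tags, Ago2 18, 26 and 30, and the tested cluster of Ago3 19, 19 and 35, and none of them passed. Of the 3 clusters known by description alone, none passed. The one described as similar to Eif4g1 had 10, 12 and 14 tags, the one similar to Eef2 9, 4 and 7, and the one similar to Eif3a 4, 4 and 7. The clusters under the minimum were 1 each of Eif1ax, Eif2ak1, Eif2d, Eif2s2, Eif2s3y, Eif3m, Eif4a1, Ago3, Gm17638 and Eef1akmt2, a methyltransferase of eEF1A. A further 3 clusters whose tags are shared between a factor gene and another gene were left out.

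Genes that act on these factors were read from lists. For the list counts here and below, 5.96% of all clusters tested rose and 5.23% fell at day 1. At day 2, 7.37% rose and 7.91% fell, each against day 0. Over the 16 tested clusters of the mTORC1 pathway, 1 rose and 0 fell at day 1 against day 0, and 1 rose and 1 fell at day 2, with median log2 ratios of -0.27 and -0.20. Pdcd4, which binds and inhibits eIF4A, had 473, 364 and 217 tags and fell by 1.07 at day 2 (adjusted p 2.2e-19), which was called. Tsc2, a brake on mTORC1, had 150, 283 and 265 tags and rose by 0.98 at day 1 and 0.87 at day 2 (adjusted p 2.3e-10 and 3.3e-08). Akt1s1, an inhibitory partner of mTORC1, had 258, 283 and 202 tags and did not pass.

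Over the 7 tested clusters of the integrated stress response, the programme downstream of phosphorylated eIF2, 1 rose and 1 fell at day 1, and 2 rose and 0 fell at day 2 (median 0.19 and -0.26). Ppp1r15a, the phosphatase subunit that restores eIF2, had 81, 147 and 141 tags, 0.92 higher at day 1 and 0.84 at day 2. Chac1 had 269, 352 and 399 tags and rose by 0.62 at day 2 (adjusted p 5.7e-07). Gadd45a, a growth arrest gene, had 93, 36 and 63 tags and fell by 1.30 at day 1 (adjusted p 1.9e-05), which was called. Atf5 had 395, 296 and 287 tags and Ppp1r15b 169, 116 and 110, and neither passed. Ppp1r15a is named because it passed the test at any size of change. Movement in both directions was thus seen at day 1 only, with 1 cluster each way.

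Of 5 tested modifiers of eIF5A and eEF2, none rose and 2 fell at day 2. Dohh, the hydroxylase that completes hypusine on eIF5A, had 446, 467 and 241 tags and fell by 0.84 (adjusted p 2.9e-12). Dph3, of the diphthamide pathway of eEF2, had 290, 227 and 173 tags and fell by 0.69 (adjusted p 4.1e-06). Dhps, which starts hypusine synthesis, had 87, 107 and 114 tags and did not pass.

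Release, recycling and reinitiation factors gave 2 of 7 that rose at day 1 and 1 of 7 at day 2, with none that fell. Etf1, the release factor eRF1, had 1086, 1268 and 1074 tags (0.29 at day 1), and its GTPase partner Gspt1 had 887, 975 and 1145 tags (0.42 at day 2, adjusted p 1.5e-09). Mcts1 had 196, 141 and 235 tags and rose by 0.72 from day 1 to day 2. Of 8 poly(A)-binding protein clusters, 1 rose at day 2, Paip2 with 821, 754 and 964 tags (0.28, adjusted p 0.00031). Pabpn1 had 897, 802 and 886 tags. Pabpc1 was split over 3 clusters, with 67, 72 and 68, 51, 41 and 32, and 10, 4 and 11 tags, none of which passed. Over 9 clusters of mitochondrial translation factors none rose or fell at either day. The most abundant of them, Tsfm, Gfm1 and Mtif3, had 151, 183 and 186, 132, 142 and 142, and 82, 68 and 69 tags.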

How the data were processed

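Whole skin RNA was captured on oligo(dT) beads, cut with NlaIII and MmeI, amplified by PCR and sequenced as tags on an Illumina Genome Analyzer, per the labels' protocols and the design text. For each UniGene cluster the authors deposited a count of its tags, the same count as TPM, and each tag's copy number and cut site (per the file headers). No aligner, mismatch limit or build is given in the sources used here. Dividing counts by the deposited TPM gave 6030093, 6070058 and 5666060 kept tags, of which 45.3%, 47.1% and 46.5% are in the tables. No tag is listed with fewer than 2 copies, so an unlisted gene was tested as 0 tags but need not have had 0.

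Clusters were named by exact match of tags to GENCODE M21 transcripts (GRCm38; at least 80% of matched and 50% of all tags in 1 gene). Counts were tested as deposited with a binomial test (scipy 1.17.1) after TMM scaling (edgeR 4.0.16, R 4.3.3; factors 1.03, 0.94 and 1.03). With 1 library a group, edgeR's quasi-likelihood test could not be fitted. Ratios carry a pseudocount of 0.5 tags. PCR copies cannot be told from molecules, so intervals and p-values cover counting error only. Alternatives were other scalings (DESeq2 1.42.0, kept tags, table tags), count minimums, tags of 1 gene, 3′-most sites, summed clusters and assumed variation between animals. The test was also run on simulated Poisson counts. These hold no variation between animals and no PCR copies, so they cannot show how the test behaves under either.

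Named were the members called, the 3 most abundant of each group, a fixed set (among them Eif2s1, Eif4e, Eif4g1, Eif5a, Eef1a2, Eef2 and the kinases) and, of other lists, members called and the 3 most abundant. Further names passed an adjusted p of 0.001 or complete a family, and were chosen after their values were seen. The members and lists were chosen with earlier results of these data known.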

Additional observations from a re-analysis of the deposited data

How the results depend on the processing

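No paired analysis was possible because each group has 1 library. Against 4, 4 and 1 members called for day 1 over day 0, day 2 over day 0 and day 2 over day 1, scaling by all kept tags gave 2 in the first and 2 in the second, and tags that match 1 gene gave 2 in the first and 0 in the third. Summing the clusters of a gene gave 2 in the second, and the 3′-most sites alone gave 2 in the third. An assumed coefficient of variation of 0.2 or 0.4 between animals, tested by edgeR's exact test at an adjusted p of 0.05, gave 0 members in all 3 comparisons. At 0.2, 0.21%, 1.77% and 0.652% of all clusters were called, so no member ratio passed once variation of that size was assumed.

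Scaling by tags assigned to clusters moved every log2 ratio of day 1 over day 0 by -0.13 and of day 2 over day 1 by 0.13, and scaling by kept tags moved the latter by 0.11. The median of the members at day 1 changed sign with it (-0.04 by kept tags, -0.10 by table tags). The 9 called ratios were recomputed 69 times under the other scalings, minimums and choices of tags, where 15 or more tags were left. The call held in 60 of these and was lost in 9, and 0 reversed; 3 ratios not called before gained a call. Summed clusters and assumed variation are not among the 69 and are given above. Among those lost at day 1, Eif3i was at 0.99 and 0.94 by kept and table tags, and Eif4g1 at 0.97 and 0.91. Ago1 and the called Eif1ad cluster, each at -1.01 at day 2 in the main test, lost their calls by kept tags. That scaling moved every log2 ratio of day 2 over day 0 by 0.04. The ratios of these named genes stand at the edge of 2-fold. Of the other calls lost, 1 was lost without a minimum of tags, 1 with tags of 1 gene and 1 without tags ending in 8 or more A. The called ratio with the highest adjusted p was that of Eif3a at day 2, at 0.00069 in the binomial test. Members with under about 50 tags a library have intervals over 1 log2 unit wide, and smaller changes in them were not detectable at this depth.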
